A study of Mus musculus with 6 samples.

Results

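The genes described here are 10 members of the TGF-beta and BMP pathway: the receptors Tgfbr1, Tgfbr2 and Tgfbr3, the signal transducers Smad2, Smad3 and Smad4, the inhibitor Smad7, and Id1, Id2 and Id3, target genes of the pathway. They were chosen by name, and all their probe sets were taken. Each gene had 1 probe set named for it alone, so 10 of the 19935 genes with such a probe set are described, from 28815 probe sets in all. Of these, 9 were bright enough to be tested, and Id3 was not.

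The arrays measured total RNA of mouse hematopoietic stem cells (HSC) after amplification and biotin labelling. Wild-type (WT) C57BL/6 mice gave 3 arrays, and Selp-/- mice, which lack P-selectin and are given the same strain, gave 3 more. Within each genotype the labels number the arrays 1 to 3. The labels are silent on the age and sex of the mice, on how the cells were sorted and on the origin of the Selp-/- line. They do not assign the arrays to separate mice either, so the p-values measure the spread between these samples only, which may be technical.

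TGF-beta binds the receptor Tgfbr2, which recruits and phosphorylates Tgfbr1. Tgfbr1 then phosphorylates Smad2 and Smad3, which enter the nucleus with Smad4. BMP ligands use related receptors and Smad1, Smad5 and Smad9, and Id genes are among their direct targets. Id proteins have a helix-loop-helix domain but no DNA-binding region, and they hold E proteins away from DNA. In the bone marrow, TGF-beta is known for keeping HSC out of cycle.

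The 2 arrays numbered 3 stood apart from the other 4 in both genotypes. Deviations from the genotype mean correlated at 0.814 between WT 3 and Selp-/- 3, against 0.428 and 0.526 for the pairs numbered 1 and 2. Of 11 tested HSC markers, 9 were lower on the arrays numbered 3 and 1, Gata2, was higher, beside 11.7% lower and 9.13% higher of all probe sets. Hlf differed by -3.53 (SE 0.13), and Mecom and Tek lay under the brightness filter on both. These 2 were tested only through the other 4 arrays, where they are high, so nothing is read from the count. Selp itself was not analysed here, so its level gave no check of the genotypes. Median deposited intensity ran from 563 on WT 2 to 751 on WT 3. Each member is therefore given by genotype and by array number. In bulk RNA, fewer cells of a type and less RNA per cell cannot be told apart.

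Promoter windows from RefSeq (GRCm38.p6, 250 bases before to 50 after the start) were found for 5 of the 10 genes: Tgfbr1, Tgfbr2, Smad3, Id2 and Id3. Shown here are Id2, Tgfbr1 and Smad3, whose levels differed between array numbers, and Id3, whose level stayed low on all 6 arrays. The Id2 window is chr12:25096043-25096342 on the minus strand and the Smad3 window is chr9:63757945-63758244 on the minus strand. The Tgfbr1 window, the first of 2 starts listed, is chr4:47352972-47353271 on the plus strand, and the Id3 window is chr4:136143572-136143871 on the plus strand. Both strands were searched for GGCGCC, a motif bound by BMP Smads, for GTCTAGAC, the palindrome bound by Smad3 and Smad4, and for CANNTG, the E-box bound by E proteins. Capitals mark the matches.
Id2: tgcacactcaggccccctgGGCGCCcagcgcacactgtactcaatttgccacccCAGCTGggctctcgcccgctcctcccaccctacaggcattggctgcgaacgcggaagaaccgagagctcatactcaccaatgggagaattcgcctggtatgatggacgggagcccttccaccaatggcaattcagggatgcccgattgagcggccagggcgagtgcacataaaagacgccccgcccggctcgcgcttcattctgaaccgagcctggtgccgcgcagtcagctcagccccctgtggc
Tgfbr1: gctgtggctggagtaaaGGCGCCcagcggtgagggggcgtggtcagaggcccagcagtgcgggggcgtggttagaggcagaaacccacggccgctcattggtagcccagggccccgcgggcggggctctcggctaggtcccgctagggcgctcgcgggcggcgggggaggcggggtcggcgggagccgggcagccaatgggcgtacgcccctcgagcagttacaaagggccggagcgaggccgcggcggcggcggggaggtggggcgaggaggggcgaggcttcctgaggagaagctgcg
Smad3: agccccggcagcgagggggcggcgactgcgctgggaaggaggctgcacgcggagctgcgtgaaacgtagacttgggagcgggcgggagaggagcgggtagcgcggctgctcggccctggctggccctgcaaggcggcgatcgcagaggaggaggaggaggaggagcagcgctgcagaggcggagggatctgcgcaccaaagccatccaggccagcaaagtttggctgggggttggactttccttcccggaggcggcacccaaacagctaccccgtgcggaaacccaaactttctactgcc
Id3: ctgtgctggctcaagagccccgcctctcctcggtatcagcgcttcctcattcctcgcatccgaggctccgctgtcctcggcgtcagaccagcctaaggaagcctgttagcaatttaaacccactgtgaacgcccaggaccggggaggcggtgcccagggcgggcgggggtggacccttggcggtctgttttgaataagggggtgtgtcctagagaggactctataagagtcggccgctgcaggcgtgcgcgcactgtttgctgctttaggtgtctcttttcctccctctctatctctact

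Id2 held GGCGCC at position -231 and an E-box at -196, both counted from the start site. Tgfbr1 held GGCGCC at -233 and no E-box in the window shown. Smad3 and Id3 held none of the 3 motifs in these windows. Over 32851 promoter windows of 300 bases, GGCGCC occurred in 11.9%, GTCTAGAC in 0.213% and CANNTG in 72.3%. The matches are a description of the letters and were not set against binding data.

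The first comparison set the Selp-/- arrays against the WT arrays and asked which genes differed between them. None of the receptors, Smads or Id genes passed the test. Differences ran from -0.10 for Smad4 to 0.28 for Id2, and Tgfbr3 stood at 0.27. For Id1, Id2 and Smad3 the spread within a genotype was far wider than the difference between genotypes. Levels are log2 intensities after background correction and quantile normalization, and differences between them are log2 fold changes.

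The receptor kinase Tgfbr1 had a level of 9.57, 9.87 and 10.07 on WT 1, 2 and 3, and of 9.78, 9.71 and 10.53 on Selp-/- 1, 2 and 3. The genotypes overlapped, with means of 9.84 ± 0.25 in WT and 10.01 ± 0.46 in Selp-/- (SD, n = 3 each). The difference was 0.17, with a 95% interval from -0.43 to 0.76. Tgfbr2, the receptor that binds the ligand, read 10.20, 10.57 and 10.25 in WT and 10.35, 10.65 and 10.36 in Selp-/-. Selp-/- was the higher array in all 3 pairs of the same number, by 0.15, 0.08 and 0.11, which lay within the spread of either genotype. Its difference was 0.11 (95% interval -0.27 to 0.49).

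Tgfbr3, the coreceptor betaglycan that presents ligand to Tgfbr2, read 9.90, 9.81 and 9.60 in WT and 9.88, 10.53 and 9.71 in Selp-/-. Array Selp-/- 2 was the high one, 0.72 above WT 2, while the other pairs differed by -0.02 and 0.12. The genotype difference of Tgfbr3 was 0.27 (95% interval -0.26 to 0.80), which left the groups overlapping.

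Smad2, a transducer phosphorylated by Tgfbr1, read 10.14, 10.25 and 10.20 in WT and 10.46, 10.24 and 9.95 in Selp-/-. The WT arrays lay inside the Selp-/- range, and the difference was 0.02 (95% interval -0.36 to 0.39). Smad4, the partner shared by the TGF-beta and BMP branches, read 11.41, 11.62 and 11.04 in WT and 11.25, 11.53 and 11.00 in Selp-/-. The WT array of Smad4 was the higher in each pair, by at most 0.16, and the genotype difference was -0.10 (95% interval -0.59 to 0.40). Smad7, which blocks the receptor and marks it for degradation, read 9.68, 9.91 and 9.89 in WT and 9.85, 9.78 and 9.58 in Selp-/-. Its pairs went both ways, and the difference was -0.09 (95% interval -0.39 to 0.22).

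Smad3, the other transducer phosphorylated by Tgfbr1, read 10.92, 11.00 and 9.66 in WT and 10.81, 11.12 and 9.99 in Selp-/-. The array numbered 3 was the low one in each genotype, and means were 10.53 ± 0.75 in WT and 10.64 ± 0.58 in Selp-/- (SD, n = 3 each). The genotype difference of Smad3 was 0.11 (95% interval -0.92 to 1.14).

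Id1 read 8.85, 8.96 and 10.11 in WT and 8.90, 8.91 and 10.04 in Selp-/-. Within each number the genotypes lay within 0.06 of each other, and the difference of the means was -0.02 (95% interval -1.04 to 1.00). Id2 read 9.81, 10.62 and 12.78 in WT and 10.17, 11.08 and 12.80 in Selp-/-. Selp-/- exceeded WT by 0.36 and 0.47 in the pairs numbered 1 and 2 and by 0.02 in the pair numbered 3. The Id2 difference was 0.28, with a 95% interval from -1.86 to 2.43 that takes in differences of several-fold in either direction. Id3 stayed between 7.92 and 8.24 on all 6 arrays, below the filter level of 8.79, with deposited intensities of 322 to 427. Its means were 8.06 ± 0.12 in WT and 8.03 ± 0.18 in Selp-/- (SD, n = 3 each).

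**Figure D1:**
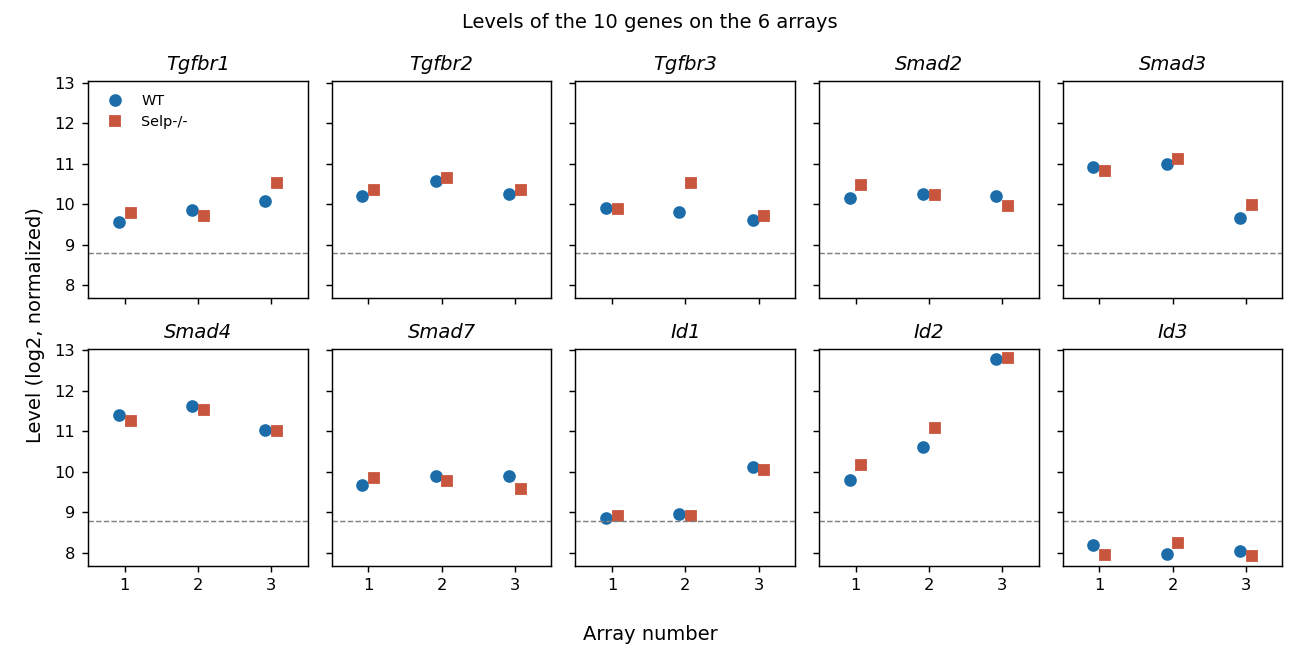
Level (log2, normalized) of each of the 10 genes against array number, with 1 point per array, circles for WT and squares for Selp-/-; the dashed line is the filter level of 8.79. Id1 and Id2 are high and Smad3 is low on the arrays numbered 3 in both genotypes, Tgfbr3 shows the widest gap between same-numbered arrays (0.72, number 2), and Id3 stays under the line.

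In numbers, 0 of the 9 tested genes passed (limma with Benjamini-Hochberg adjustment over 17289 probe sets, adjusted p = 1 for each), as did 0% of all probe sets. At an unadjusted p under 0.05, 0 of the 9 stood against 122 probe sets, or 0.706%. No member separated the genotypes without overlap, against 4.21% of tested probe sets. Median differences were 0.11 over the 7 receptors and Smads, 0.13 over Id1 and Id2, and 0.0054 over all tested probe sets. An exact permutation test of 3 arrays against 3 cannot give a p under 0.1.

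Array number was accounted for by a block in the model. Deviations from the genotype mean went together most in the pair numbered 3 (0.814). The pairs numbered 1 and 2 (0.428 and 0.526) did not stand out from WT 2 with Selp-/- 1 (0.514), so their pairing rests on the labels. The block again called 0 of the 9 genes, and 630 probe sets (3.64%) but no member had an unadjusted p under 0.05. The interval for Id2 narrowed to -0.01 to 0.57 (SE 0.12, adjusted p = 0.983, limma). With the arrays numbered 1 and 2 alone, the Id2 difference was 0.41, Tgfbr3 differed by 0.35 and Tgfbr1 by 0.02, and none of the 9 passed.

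The second comparison set number 3 against the mean of numbers 1 and 2, with genotype in the model. It was asked because the labels number the arrays and earlier results of these data showed the arrays numbered 3 apart. The split was thus chosen from these same data, so its p-values are not an independent test of a difference between numbers. Id2 and Id1 were higher and Smad3 was lower on the arrays numbered 3, in both genotypes. Tgfbr1 was slightly higher and Smad4 slightly lower. Thus 5 of the 9 tested genes passed, 3 higher and 2 lower, against 20.8% of all probe sets (9.13% higher and 11.7% lower).

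**Figure D2:**
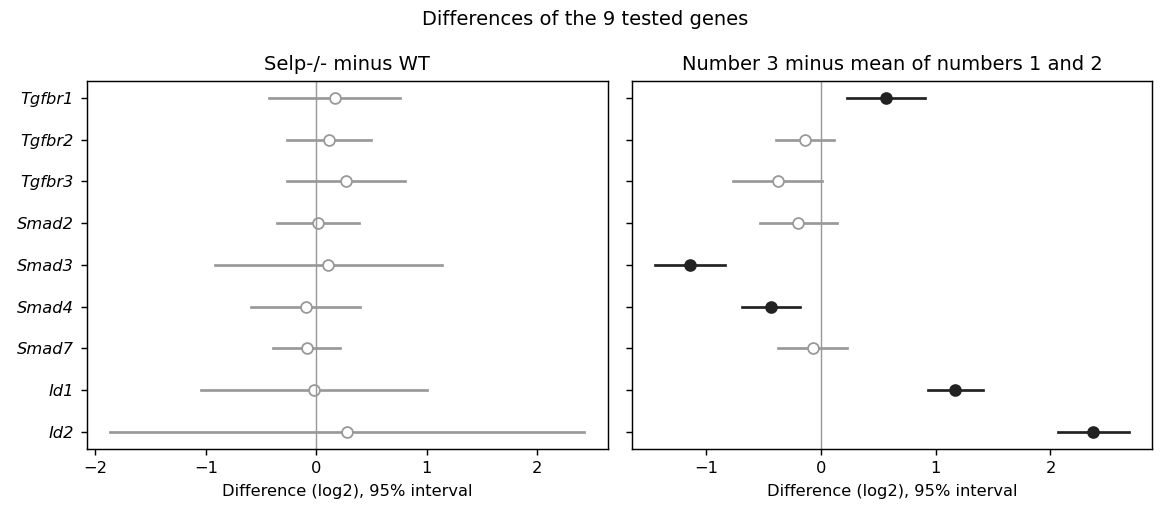
Differences (log2) of the 9 tested genes with their 95% intervals, on the left for Selp-/- minus WT and on the right for number 3 minus the mean of numbers 1 and 2; filled points passed the adjusted threshold of 0.05. No gene passed on the left, and Tgfbr1, Id1 and Id2 (higher) and Smad3 and Smad4 (lower) passed on the right.

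Id2, which is needed for natural killer and other innate lymphoid cells and restrains E proteins, had a mean level of 10.42 on the 4 arrays numbered 1 or 2 and of 12.79 on the 2 numbered 3. Before normalization its intensities were 981, 1346 and 7890 in WT and 1448, 2016 and 7960 in Selp-/-. The arrays numbered 3 were thus the brightest for Id2 before normalization as well. The fitted difference was 2.37 (SE 0.13), a factor of 5.17 with a 95% interval from 4.17 to 6.42 (adjusted p = 0.000164, limma). The same difference was 2.57 within WT and 2.17 within Selp-/-.

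Id1, an Id gene induced by BMP in many cell types, had a mean level of 8.90 on numbers 1 and 2 and of 10.08 on number 3. The 4 arrays numbered 1 or 2 lay just above the filter level, between 8.85 and 8.96, and the pair numbered 3 lay at 10.04 and 10.11, so the sets did not overlap. The difference was 1.17 (SE 0.10), a factor of 2.25 (95% interval 1.91 to 2.65, adjusted p = 0.000696, limma). It was 1.20 within WT and 1.14 within Selp-/-. Id3 had no matching difference: number 3 minus the mean of numbers 1 and 2 was -0.04 in WT and -0.16 in Selp-/-, below the filter and not tested.

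Smad3 had a mean level of 10.96 on numbers 1 and 2 and of 9.83 on number 3. Its deposited intensities were 1976.5, 1697.5 and 1042 in WT and 2244.5, 2061.5 and 1223 in Selp-/-, so the arrays numbered 3 were the lowest of each genotype before normalization as well. The difference was -1.14 (SE 0.13), or 2.20-fold lower (adjusted p = 0.00203, limma). It was -1.30 within WT and -0.98 within Selp-/-. The other transducer, Smad2, did not pass, at -0.20 (SE 0.14, adjusted p = 0.366, limma), with 0.01 within WT and -0.40 within Selp-/-.

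Calls of Id1, Id2 and Smad3 held under each alternative in which the gene was tested, including the removal of any 1 array. Id1 was not tested under the stricter filter at the 60th percentile. Over those alternatives the Id2 difference ran from 2.17 to 2.57, that of Id1 from 0.95 to 1.20 and that of Smad3 from -1.30 to -0.81.

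Smad4 was lower by a smaller amount, at -0.44 (SE 0.11), 1.35-fold (adjusted p = 0.0304, limma), with -0.48 in WT and -0.39 in Selp-/-. This call was lost when any 1 of the 6 arrays was left out (adjusted p from 0.0569 to 0.259), with median centring, and without normalization, where the difference was -0.14. Tgfbr1 was higher by 0.57 (SE 0.14), 1.48-fold (adjusted p = 0.0334, limma), with 0.35 in WT and 0.79 in Selp-/-. Without Selp-/- 3 the Tgfbr1 difference was 0.35, and its call was lost without WT 1, Selp-/- 1, Selp-/- 2 or Selp-/- 3 (adjusted p from 0.0228 to 0.255 over the 6 removals). Tgfbr2 (-0.14, SE 0.11), Tgfbr3 (-0.38, SE 0.16) and Smad7 (-0.07, SE 0.13) did not pass. Tgfbr3 passed only when WT 2 was left out, at -0.54 (adjusted p = 0.0348, limma).

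The scaling moved the balance of calls over the whole array. With quantile normalization 1578 probe sets were higher and 2025 lower on the arrays numbered 3, and without normalization 3908 were higher and 769 lower, with the median of all tested probe sets moved up by 0.20. Without normalization Id1, Id2 and Tgfbr1 were still called higher and Smad3 lower. The arrays numbered 3 lay outside the range of the other 4 for 6 of the 9 genes (Tgfbr1, Tgfbr3, Smad3, Smad4, Id1 and Id2), against 45.2% of all tested probe sets.

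Set side by side by role, Id1 and Id2 ranged widely over the arrays, while Id3, the third Id gene, ranged over 0.32 and is not in the Id median given here because it was under the filter. Relative to its mean over the 6 arrays, the median of Id1 and Id2 was -0.92, -0.46 and 1.19 on WT 1, 2 and 3 and -0.72, -0.26 and 1.17 on Selp-/- 1, 2 and 3. The median of the 7 receptors and Smads was -0.06, 0.12 and -0.14 on the WT arrays and -0.02, 0.23 and -0.20 on the Selp-/- arrays. The median of Id1 and Id2 was thus above 1 on the arrays numbered 3 and below 0 on the other 4, while the receptor and Smad median stayed within 0.23 of 0 throughout. Number 3 minus numbers 1 and 2, the Id median differed by 1.77 and the receptor and Smad median by -0.24, beside a spread over numbers 1 and 2 of 0.29 and 0.13 (SD, n = 4). Of the 7 receptors and Smads, 1 was called higher and 2 lower, beside 9.13% higher and 11.7% lower of all probe sets. Without normalization the -0.24 became -0.00121, beside the shift of 0.20 in all probe sets. All tested probe sets had medians between -0.014 and 0.013. These medians are descriptions, with no test.

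Between number 2 and number 1, 0 of the 9 genes passed, against 0.0521% of probe sets. Id2 had the smallest p of the 9: it differed by 0.86 (SE 0.15, adjusted p = 0.203, limma), with 0.81 in WT and 0.92 in Selp-/-. Tgfbr2 differed by 0.34 (SE 0.12, adjusted p = 0.624, limma), and without normalization its difference was -0.00181. These were the 2 of 9 genes with an unadjusted p under 0.05, against 7.96% of probe sets. Neutrophil markers differed between the same arrays: 3 of 10 (Ngp, Elane and Lcn2) were lower on number 2, with quantile normalization all 10 differences were below 0, and the median was -1.69. Their summed linear level was 38943 on WT 1 and 41938 on Selp-/- 1, and 16945 on WT 2 and 16172 on Selp-/- 2. Of 5 erythroid markers, 1 (Car1) was lower. These 4 genes, named after their values were seen, are among the 9 probe sets called in this comparison, and the part of those cells in the Id2 and Tgfbr2 values was not tested.

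Whether the genotype difference itself was another one in the pair numbered 3 was tested by the interaction of genotype with number. None of the 9 genes passed, against 0.0521% of probe sets, and none had an unadjusted p under 0.05, against 4.15%. The interaction was 0.43 (SE 0.28) for Tgfbr1, -0.41 (SE 0.27) for Smad2, 0.32 (SE 0.29) for Smad3, -0.39 (SE 0.57) for Id2 and -0.06 (SE 0.23) for Id1. The 95% interval of the Id2 interaction ran from -1.68 to 0.89. The interaction model had no term for number 2 against number 1. The Id2 difference between those numbers, 0.81 in WT and 0.92 in Selp-/-, thus counted as spread and widened the interval. In this model a genotype difference that changed with number was not measured closely for Id2.

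The rest of the pathway was read from 7 lists of 73 genes, of which 69 had a probe set and 59 were tested. In the genotype comparison 0 of the 59 passed. For number 3 against numbers 1 and 2, 10 were higher and 11 lower, or 35.6% of the 59 beside 20.8% of all probe sets. The count includes Inhba, Dcn and Bmp4, which passed the filter only through the arrays where they are high, so nothing is read from it. Both medians were -0.013. Over all probe sets 9.13% were higher and 11.7% lower, which stands beside each count by role below. Those counts are small, and nothing is read from them.

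Among 7 tested ligands, 3 were higher and 2 lower. Inhba, the activin A subunit, read 8.62, 8.41 and 9.99 in WT and 8.31, 8.49 and 9.44 in Selp-/-, and was higher on the arrays numbered 3 by 1.26 (SE 0.15, adjusted p = 0.00231, limma). It lay under the filter level on all 4 arrays numbered 1 or 2 and entered the test only through the arrays numbered 3, where it is high, so that its call is no support for a difference. Tgfb1, the ligand of the receptors above, read 12.36, 12.29 and 13.08 in WT and 12.38, 12.32 and 12.78 in Selp-/-. It was higher by 0.59 (SE 0.10, adjusted p = 0.0104, limma), a call lost without WT 3 (adjusted p from 0.00886 to 0.145 over the removals). Bmp4, a BMP ligand, was lower by 0.76 on the log2 scale, with levels of 8.50 and 8.57 on the arrays numbered 3, below each of the other 4. Bmp4 in turn was under the filter level on both arrays numbered 3. It was tested only through the other 4 arrays, where it is high, so that its call is no support either. Inha, the inhibin alpha subunit, was also lower, at -0.60, a call lost without WT 3 and without normalization. The third higher ligand, Bmp7 (0.68, adjusted p = 0.0497, limma), fell outside the limit of 4 genes a list and is named after its values were seen: it read 10.19 on WT 3 and 9.28 on Selp-/- 3. Its difference was 1.11 within WT and 0.25 within Selp-/-. The Bmp7 call was lost without WT 1, WT 2 or WT 3 (0.25 without WT 3, adjusted p from 0.00464 to 0.45 over the 6 removals) and under 6 of 11 alternatives in all.

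Other receptors gave 0 higher and 2 lower of 7. Eng, endoglin, a coreceptor of TGF-beta and BMP that is carried by HSC and endothelium, read 11.89, 12.04 and 10.63 in WT and 11.78, 12.17 and 10.43 in Selp-/-. It was 2.71-fold lower on the arrays numbered 3, a difference of -1.44 (SE 0.12, adjusted p = 0.000614, limma). Bmpr2, the BMP type II receptor, was lower by 0.41 on the log2 scale, and its call was lost with any 1 array left out. Bmpr1a, another BMP receptor, named after its values were seen, was under the filter and not tested. It differed by -1.17 in WT and -1.19 in Selp-/-. Acvr2a (-0.48 and -0.12), Bmpr1b (0.27 and -0.29) and Acvr1c (0.01 and 0.30) were not tested either. Of the 4 other Smads, Smad5, a BMP transducer, was lower (-0.76, SE 0.14), a call lost without WT 3 or without Selp-/- 3. Smad1 (-0.04) and Smad6 (-0.20) did not pass.

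Extracellular modulators gave 3 higher and 1 lower of 13. Thbs1, thrombospondin 1, which activates latent TGF-beta and is abundant in platelets, read 10.16, 10.39 and 12.75 in WT and 9.98, 9.90 and 12.46 in Selp-/-. It was 5.64-fold higher on the arrays numbered 3 (difference 2.50, SE 0.12, adjusted p = 0.000107, limma). Decorin (Dcn, 0.71) and Lrrc32 (0.45), a receptor that holds latent TGF-beta on the cell surface, were higher, and Ltbp3 (-0.88), which binds latent TGF-beta in the matrix, was lower. Like Inhba, Dcn was under the filter level on all 4 arrays numbered 1 or 2 and was tested only through the arrays numbered 3. Its call was also lost without Selp-/- 2 or Selp-/- 3. That of Lrrc32 was lost under 7 of 11 alternatives, including the removal of any WT array or of Selp-/- 2.

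Intracellular regulators gave 2 higher and 2 lower of 14. The ubiquitin ligases Wwp1 (0.50) and Smurf1 (0.45), which act on receptors and Smads, were higher. Trim33 (-0.64), which binds Smads, and Lemd3 (-0.60), a nuclear membrane protein that binds Smads, were lower. The call of Trim33 was lost without WT 3, and that of Lemd3 without WT 3 or Selp-/- 3. Wwp1 lost its call under 5 of 12 alternatives and Smurf1 under 6 of 12, in both cases with 5 of the 6 removals of an array. Among 9 other targets, Tgfbi, a matrix protein named for its induction by TGF-beta, was 2.48-fold higher (difference 1.31, SE 0.14, adjusted p = 0.00174, limma) and Cdkn2b, a cell cycle inhibitor, was higher by 0.48 (adjusted p = 0.0485, limma). The Cdkn2b call was lost under 5 of 11 alternatives, among them the removal of any WT array or of Selp-/- 1, and its difference ran from 0.29 to 0.67 (adjusted p from 0.0281 to 0.413 over the removals). Tsc22d1, a TGF-beta-induced transcription regulator, was lower (-0.72), a call lost without normalization.

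E proteins and their partners, the proteins that Id proteins bind or keep apart, had 0 higher and 2 lower of 5. Tcf4 read 11.15, 11.20 and 10.32 in WT and 10.85, 11.15 and 10.39 in Selp-/-, a difference of -0.74 (SE 0.12, adjusted p = 0.00913, limma). Tcf12 differed by -0.52. Tcf3 (-0.30), Lyl1 (-0.27) and Tal1 (-0.03) did not pass. Tcf4 lost its call without WT 3 and without normalization, and Tcf12 under 5 of 12 alternatives. Of the 21 called genes, Eng, Thbs1, Ltbp3 and Tgfbi kept their calls in each alternative that tested them. Inhba and Bmp4 did so too, with the limits given above, and 15 lost theirs in at least 1.

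**Figure D3:**
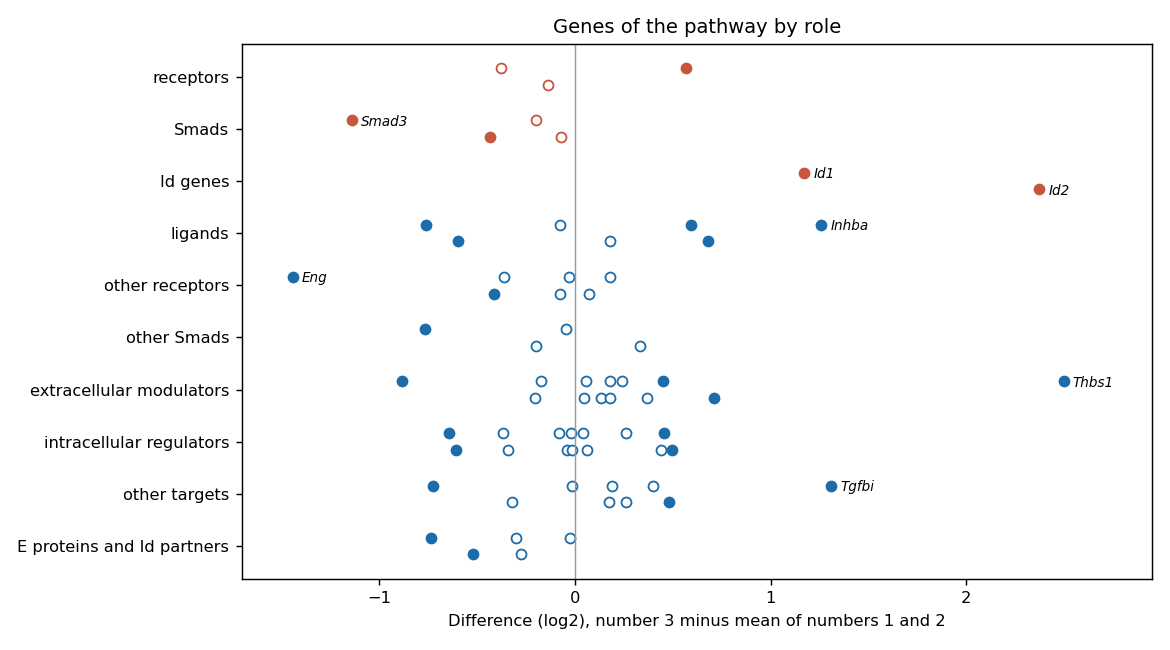
Difference (log2) between number 3 and the mean of numbers 1 and 2 for each tested gene, by role, with the member genes in red and the other pathway genes in blue; filled points passed the adjusted threshold of 0.05 and differences beyond 1 are named. Id2 and Thbs1 lie farthest to the right, Eng and Smad3 farthest to the left, and 21 of the 59 blue points are filled.

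For genotype, the gene of smallest p in each list was Bmp7 (-0.34), Acvr1 (-0.11), Smad1 (-0.11), Grem1 (-0.25), Tgif2 (0.28), Id4 (-0.14) and Tal1 (0.10), and none passed. In the interaction of genotype with number 3, Bmp7 stood at -0.85 (SE 0.25) and Atoh8, a BMP target, at -0.82 (SE 0.24), each with an adjusted p of 0.767 (limma). Atoh8 read 10.11 on WT 3 and between 9.26 and 9.50 on the other 5 arrays.

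Markers of other blood cells differed between the same arrays. Over all probe sets 9.13% were higher and 11.7% lower on number 3, which stands beside each count here. Of 7 tested mast cell and basophil markers 6 were higher on number 3. Sums here cover each listed gene with a probe set, tested or not. For the 9 such genes of this list, the untested Ms4a2 and Cma1 included, the summed linear level was 4687 to 6106 on numbers 1 and 2. It was 43086 to 56858 on number 3. Fcer1a, Ms4a2, Cma1 and Tpsb2 were under the filter level on all 4 arrays numbered 1 or 2, and Mcpt8, a basophil protease, was higher by 4.51 (SE 0.13). Neutrophil markers had 8 of 10 higher and 1 lower, with sums of 16172 to 41938 and of 63443 to 69521. Monocyte and macrophage markers had 6 of 9 higher, with sums of 9472 to 10096 and of 22965 to 36158, and Adgre1 was under the filter level on the 4 arrays. Fcer1a, Tpsb2 and Adgre1 were thus tested only through the arrays numbered 3, where they are high. Nothing is read from the counts that hold them.

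Megakaryocyte markers had 3 of 6 higher (sums of 6275 to 10179 and of 13335 to 23657). Their median was 0.94 on WT 3 and 0.14 on Selp-/- 3, and all 6 interaction values were below 0, with none called. T and NK markers had 2 of 5 tested genes higher and 2 below 0. Sums over the 7 genes with a probe set were 6591 to 7868 and 13327 to 14442. Gzmb, among these, lay under the filter level on all 4 arrays numbered 1 or 2. It was tested only through the arrays numbered 3. Klrb1c, not tested, differed by -0.84 in WT and -0.98 in Selp-/-. Erythroid markers had 2 of 5 lower (6220 to 20258 and 3451 to 3889). The sums of the HSC markers were 25341 to 34296 on numbers 1 and 2 and 12101 to 15072 on number 3. B lymphoid markers had 1 higher and 2 lower of 7, endothelial markers 1 higher and 2 lower of 7, and stromal markers 1 higher of 6. Ebf1, Dntt and the neutrophil marker Retnlg lay under the filter level on both arrays numbered 3. Nothing is read from a count that holds genes tested only through the arrays where they are high. The part of these cell types in the differences of Id1, Id2, Smad3, Eng and Thbs1 was not tested. In the genotype comparison no gene of any marker list passed.

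**Figure D4:**
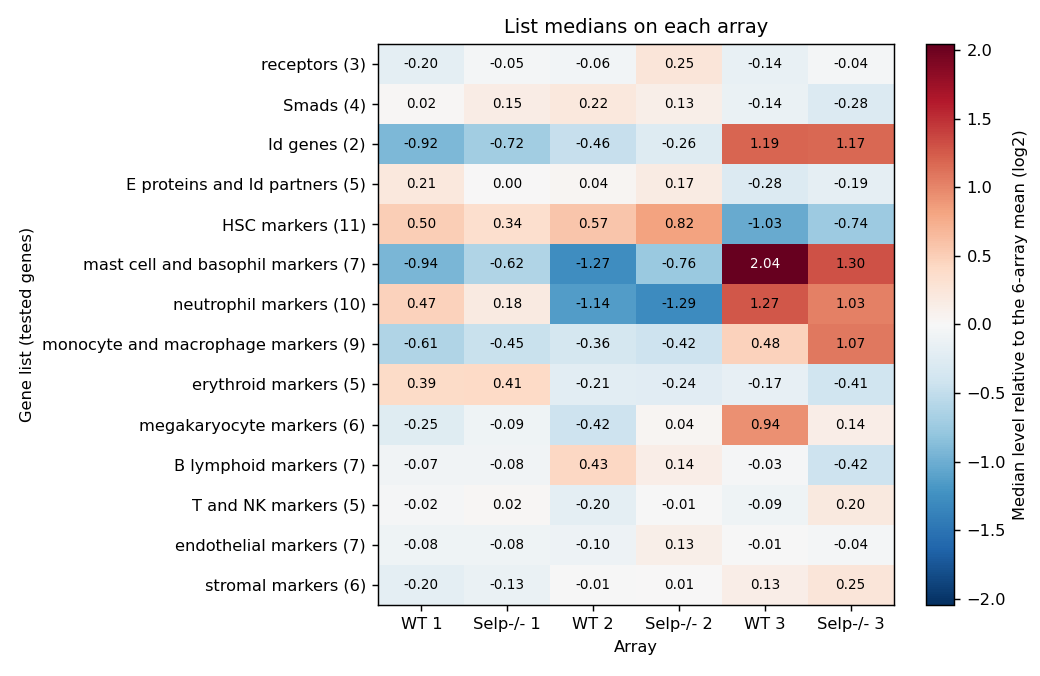
Median level of each gene list on each array (log2, relative to each gene's mean over the 6 arrays), with the number of tested genes in brackets. The Id genes reach 1.19 and 1.17 on the arrays numbered 3, where the HSC markers are at -1.03 and -0.74 and the mast cell and basophil markers at 2.04 and 1.30, while receptors and Smads stay between -0.28 and 0.25. The medians of these marker lists hold genes tested only through the arrays where they are high (Mecom and Tek, and Fcer1a and Tpsb2). Nothing is read from those medians.

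For the 3 members whose level varied most (SD over the 6 arrays above 0.5), the probe sets of most similar pattern were found from the root mean square difference between centred log2 levels. For Id1 these were Ctsa (0.030) and Lss (0.052). For Smad3 they were Pcbd1 (0.072) and Itsn1 (0.088), and for Id2 Tlr13 (0.29) and S100a6 (0.31). The smallest distances belonged to Id1 and the largest to Id2, whose own SD was 1.30 against 0.61 for Id1 and 0.60 for Smad3. Tlr13 read 7.94, 8.29 and 10.25 in WT and 8.26, 8.43 and 10.68 in Selp-/-. It was picked for a pattern like that of Id2, so its high level on the arrays numbered 3 follows from the choice. On the 4 arrays numbered 1 or 2 it lay under the filter level, and it passed only through the arrays numbered 3.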

How the data were processed

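The authors deposited linear probe set intensities from an Affymetrix whole-transcript mouse array; MAS5 is named without a version, per the submitters' processing notes, with a genome build not given in the sources used here. Here, normexp background correction (offset 50) was followed by log2 and by quantile normalization of the 6 arrays. Probe sets under the 40th percentile of mean level (8.79) were left out, which left 17289. Differences came from limma 3.58.1 (R 4.3.3; lmFit, eBayes with trend, two-sided, Benjamini-Hochberg over all 17289, threshold 0.05), tested on simulated data. Genes were named through the platform annotation and RefSeq (GRCm38.p6): 21780 probe sets had 1 symbol, 1605 several and 5430 none, and 21689 matched RefSeq. Only probe sets with 1 symbol were named.

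The members, the lists and the contrast of number 3 were chosen with earlier results of these data known. Named were the 10 members, up to 4 called genes a list (or the 1 of smallest p), some genes of the marker lists and the 2 genes likest to each variable member. Some marker genes were first in their list. Others, such as those under the filter level, were named after their values were seen. Arrays of the same number were taken as pairs from their labels. Deviations within the pairs correlated at 0.428, 0.526 and 0.814. WT 2 and Selp-/- 1, of different numbers, correlated at 0.514, so only the pair numbered 3 stood out. Alternatives were no background correction, other normalizations, filters and variance models, a block, and removal of arrays. The number of arrays limits the precision.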

Additional observations from a re-analysis of the deposited data

How the results depend on the processing

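The count of called receptors, Smads and Id genes stayed at 0 for genotype, for number 2 against number 1 and for the interaction under each alternative run, the replicate block included (0 of 9 with the block). For number 3 against numbers 1 and 2 it was 3 to 5 with 1 array left out. No called value changed direction. Over the 9 tested genes, a difference that was not called changed sign in 19 of 134 values for genotype, 6 of 107 for number 3, 12 of 107 for number 2 against 1 and 9 of 89 for the interaction.

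Over all probe sets the calls for number 3 ran from 1381 (without WT 3) to 3148 with 1 array left out, against 3603. For number 2 against number 1, 9 calls became 1286 without normalization, 28 with median centring, 3 with no filter, 15 with the stricter filter, 5 without a variance trend and 1 to 74 with 1 array left out. For the interaction, 9 calls (2 higher, 7 lower) became 57 without normalization (20 higher, 37 lower), 0 with no filter (lowest adjusted p 0.153), 5 without a variance trend and 0 to 8 with 1 array left out; without WT 3 or Selp-/- 3 it could not be estimated. For genotype, 0 calls became 4 on the arrays numbered 1 and 2 alone and 8 with the replicate block added there. The receptor and Smad median (number 3 minus numbers 1 and 2) was -0.00121 without normalization and -0.30 to -0.18 with 1 array left out, and that of the Id genes 1.66 to 1.88. Without normalization the median over all probe sets lay at 0.108 for genotype, -0.224 for number 2 against number 1 and -0.241 for the interaction. The causes were not tested. Id1 on the arrays numbered 1 and 2 lay close to the filter level, which limits what its low values show.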
